A study of Ovis aries with 32 samples.

Results

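The genes described here encode the enzymes that write and erase methyl and acetyl groups on DNA and histones. They were taken from the count table by symbol: the DNA methyltransferases (DNMT), the TET dioxygenases, the histone methyltransferases named EZH, EHMT, KMT and SETD, the protein arginine methyltransferases (PRMT), the histone demethylases (KDM), the lysine acetyltransferases (KAT), the histone deacetylases (HDAC) and the sirtuins (SIRT). The rule found 80 of the 28524 genes in the table, of which 22277 had at least 1 count. The 80 members comprise 4 DNMT, 3 TET, 2 EZH, 2 EHMT, 8 KMT, 11 SETD, 8 PRMT, 16 KDM, 8 KAT, 11 HDAC and 7 SIRT genes, and the rule used no measured value.

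The study measured RNA in 4 fat depots of female sheep whose mothers had or had not received testosterone in pregnancy, an exposure used as a model of polycystic ovary syndrome. Treated ewes were injected with 100 mg testosterone propionate (1.2 mg/kg, in 2 ml corn oil) 2 times a week between days 30 and 90 of gestation, and 1 daughter per pregnancy was used in a group. The 4 control daughters (sheep 98, 131, 132 and 201) and the 4 testosterone daughters (sheep 48, 185, 233 and 255) were all ovariectomized, given 2 progesterone implants for 14 days and then 4 estradiol implants for 18 h, so both groups were studied under the same replaced steroids and without ovaries. Visceral fat came from around the rumen, subcutaneous fat from under the sternal skin, perirenal fat from around the kidney and epicardial fat from the heart, 1 library per sheep and depot (32 libraries, n = 4 sheep in each of 8 groups). Libraries were made with a 3′-end kit, so a transcript contributes counts near its 3′ end and no length correction applies. Levels are given in CPM, counts scaled to a common library size with TMM factors.

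DNA methylation is laid down by DNMT3A and DNMT3B, copied to the new strand at replication by DNMT1 and removed stepwise after oxidation by the TET enzymes. On histones, EZH1 and EZH2 are the catalytic subunits of the Polycomb complex that methylates histone H3 at silenced genes, EHMT1 and EHMT2 (GLP and G9a) write the repressive mark on another lysine of H3, and the KMT2 enzymes write the marks of active promoters and enhancers. Demethylases of the KDM families take these marks off, KAT enzymes add acetyl groups, and HDAC and SIRT proteins remove them, some of them outside the nucleus. In fat tissue these enzymes are best known from the formation of adipocytes: KMT2C and KMT2D act at enhancers that open during adipogenesis, and EHMT1 acts with PRDM16 in brown fat cells.

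Library totals ran from 784135 to 8267824 counts. Adipocyte genes (9 of 9 in the table) summed to 9942 to 54860 CPM over the 32 libraries. Heart muscle genes (11 of 13 in the table) summed to 6.54 to 12473 CPM in epicardial fat of control sheep and 5.45 to 21320 CPM in that of testosterone sheep, against at most 32.3 CPM elsewhere. Mesothelial genes summed to 1.45 to 8.09 CPM in subcutaneous fat and to 49.2 to 230 CPM in the other depots. A list of 13 nuclear and intron-retaining transcripts (among them ARGLU1, LUC7L3 and CLK1) set 2 libraries apart: it summed to 54818 CPM in subcutaneous fat of testosterone sheep 48, which also had the fewest counts, and to 52255 CPM in visceral fat of testosterone sheep 255, against 3515 to 19123 CPM in the other 30. In these libraries 34 and 44 of the 80 members, respectively, were at their highest among the 8 libraries of the depot, and 15 and 11 were at their lowest. Differences that these libraries enter are given with and without them where they moved most. In whole tissue, fewer cells of a type and less RNA per cell cannot be told apart. The p-values of the testosterone comparisons within a depot or over depots measure the spread between sheep. Those of the depot contrasts and the interaction, fitted within sheep, measure how far depot differences vary from sheep to sheep.

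The members were not uniformly abundant. Averaged over the 32 libraries, 15 members exceeded 100 CPM, 50 lay between 10 and 100 CPM, 10 between 1 and 10 CPM and 5 under 1 CPM. Together they made up 4613 to 10277 CPM of a library, with a median of 5458 CPM. Because each value counts transcript ends, an order between genes holds only as far as their 3′ ends are annotated equally well.

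Among the DNA methyltransferases, DNMT1 averaged 88.9 CPM and DNMT3A 66.5 CPM. DNMT3B averaged 0.895 CPM. DNMT3L, the catalytically inactive partner of the de novo enzymes, had 4 counts in all and none in 29 of the 32 libraries, where 3 counts would correspond to between 0.371 and 4.04 CPM, a range that covers counting error only. TET1 was the most abundant TET gene at 233 CPM, followed by TET2 at 68.0 CPM and TET3 at 4.09 CPM, and within single libraries TET1 was 2.08 to 5.58 times TET2. EZH1 averaged 211 CPM against 13.9 CPM for EZH2, the form that dominates in dividing cells, and the ratio of EZH1 to EZH2 ran from 7.53 to 28.9 over the libraries. Genes of proliferation summed to 154 to 414 CPM, and their relation to EZH2 was not tested. EHMT1 averaged 137 CPM and EHMT2 17.8 CPM.

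In the larger families the highest and lowest members differed by more than an order of magnitude. KMT2E, which reads active promoters, was the most abundant member of all at 766 CPM, and KMT5C was the lowest KMT at 4.63 CPM. Of the acetyltransferases KAT2B (PCAF) averaged 428 CPM and KAT2A 8.47 CPM. The deacetylases ranged from HDAC7, a class IIa enzyme, at 257 CPM down to HDAC4, of the same class, at 0.418 CPM. SETD5 led the SETD group at 233 CPM and SETD6 was lowest at 4.91 CPM. KDM5A (132 CPM) and KDM8 (1.11 CPM), PRMT3 (69.8 CPM) and PRMT8 (0.324 CPM), and SIRT1 (39.5 CPM) and SIRT6 (2.39 CPM) bounded the remaining families.

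**Figure D1:**
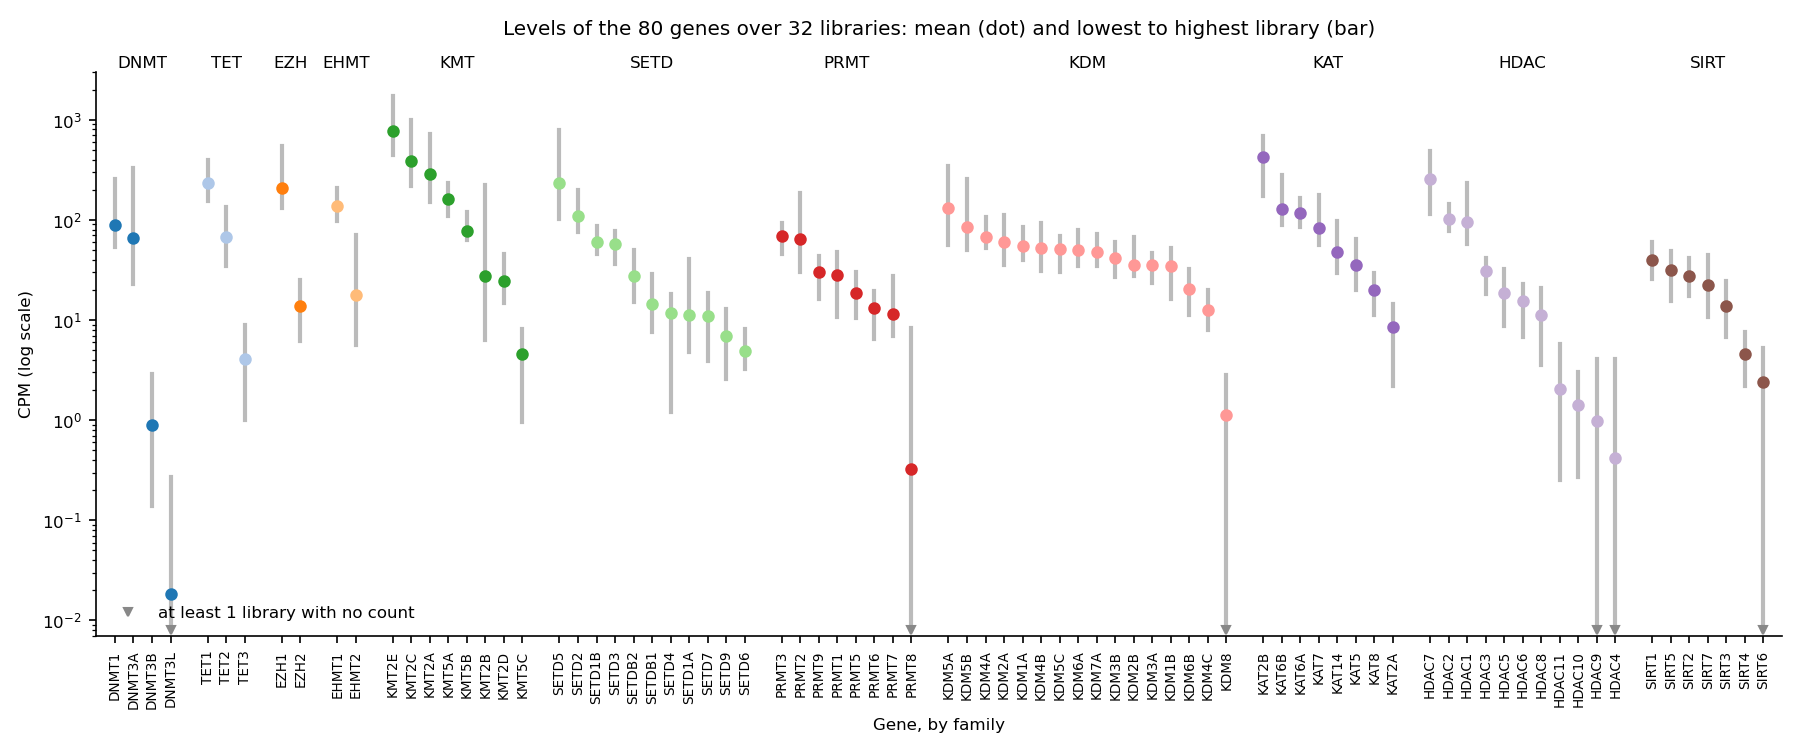
Mean CPM of each of the 80 members over 32 libraries (dots, log axis) with the lowest and highest library (grey bars), grouped by family; triangles at the bottom mark genes with no count in at least 1 library. KMT2E is highest at 766 CPM, and DNMT3L, HDAC4 and PRMT8 are among the 5 members under 1 CPM.

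To ask whether the enzymes differ between depots, each depot of the control sheep was compared with the mean of the other 3, with the sheep as a block, and 74 members passed the filter on low counts. Epicardial fat had more calls than any other depot, as it had over all genes: DNMT1, DNMT3A, TET1, EHMT2 and SETD5 were higher there. Subcutaneous and perirenal fat lay at opposite ends for the deacylases HDAC7 and SIRT5, and DNMT3A was lowest in perirenal and visceral fat. The 4 contrasts share libraries, so a gene high in 1 depot is pulled down in the others.

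By edgeR's quasi-likelihood test at a false discovery rate of 0.05, 11 of 74 members were higher and 3 lower in epicardial fat, where 15.3% of the 13369 genes tested were higher and 12.4% lower. In subcutaneous fat 5 members were higher and 4 lower, against 11.4% and 11.6% of all genes. In perirenal fat 4 were higher and 8 lower, against 7.73% and 6.04%. In visceral fat none was higher and 4 were lower, against 3.49% and 2.24%. The median log2 difference of the members was 0.11 in epicardial fat, 0.13 in subcutaneous, -0.10 in perirenal and -0.12 in visceral fat, and that of all genes lay between -0.01 and 0.03. The 39 calls fell on 25 members, of which 12 were called in 1 depot, 12 in 2 and SETD5 in 3.

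These counts moved with single animals. Without control sheep 98 the calls fell to 7 members in epicardial, 3 in perirenal and 1 in visceral fat. Without sheep 131 they were 9 in epicardial, 3 in subcutaneous, 4 in perirenal and none in visceral fat, and without sheep 201 they were 8, 4, 5 and none in the same order. Without sheep 132 there were 4 in subcutaneous fat. Each of these fits held fewer libraries, and how many of all genes they called is not given here. The falls are therefore not read as a result about the members. A core of 10 calls on 7 members passed the threshold under all 9 alternatives tried: DNMT1, DNMT3A, EHMT2, SETD5 and TET1 higher in epicardial fat, HDAC7 and SIRT5 lower in subcutaneous fat, and HDAC7 and SIRT5 higher and DNMT3A lower in perirenal fat.

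**Figure D2:**
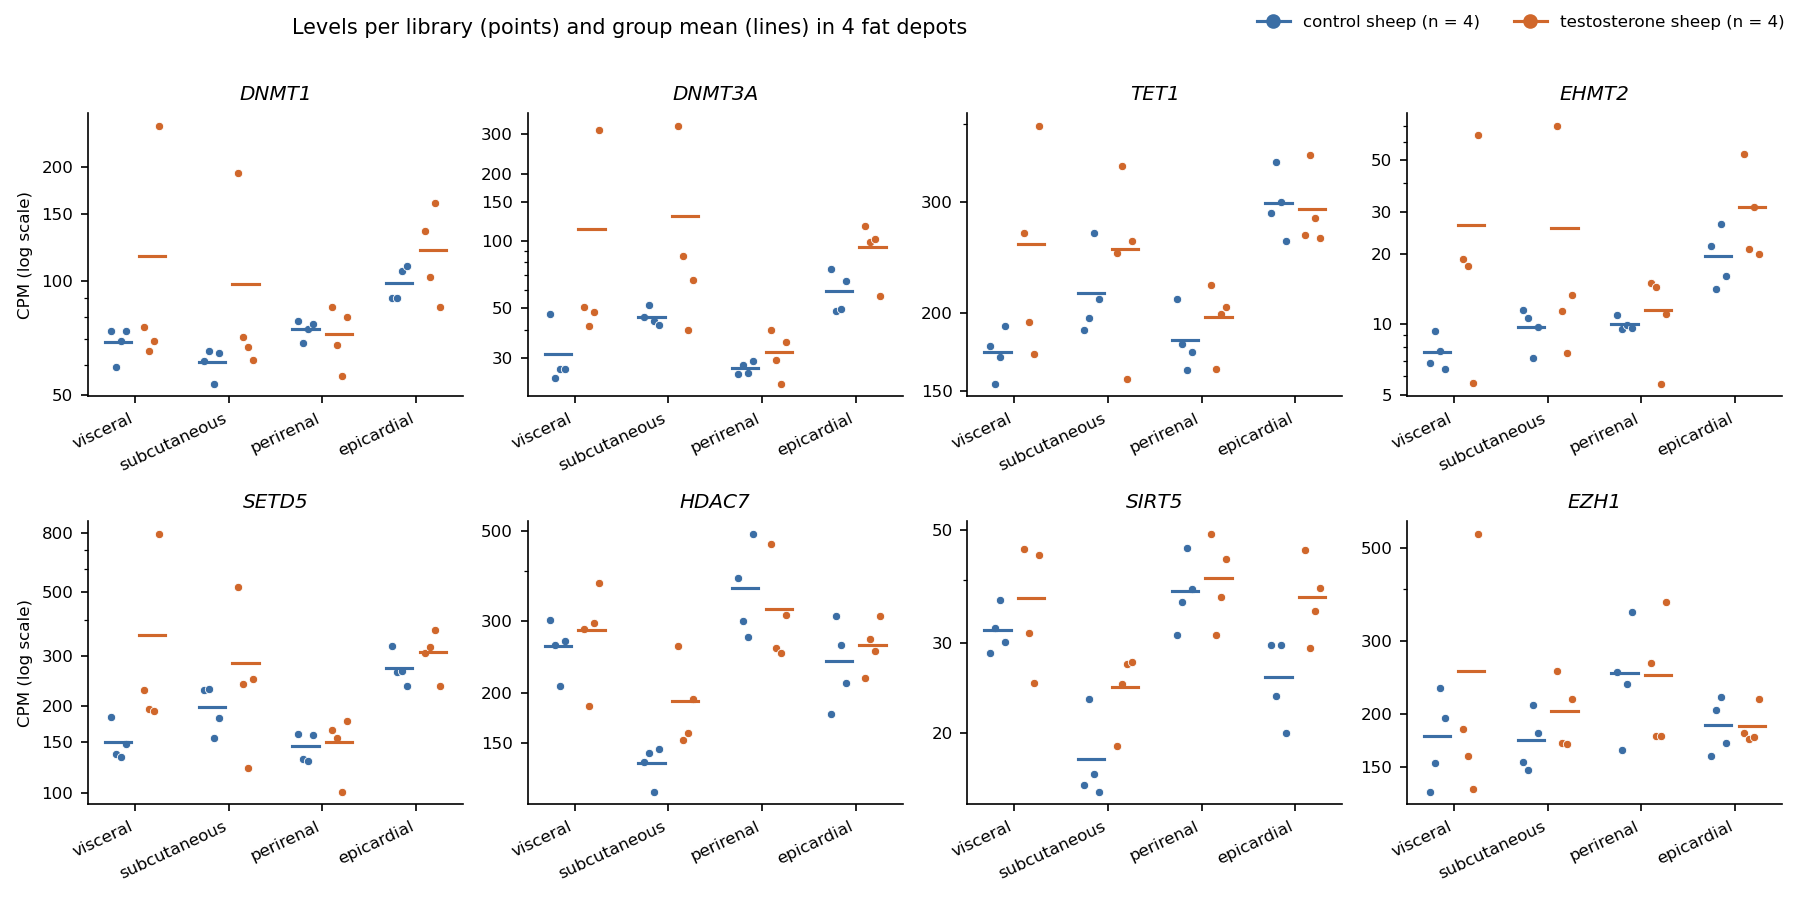
CPM (log axis) of 8 members in each library (points) by depot, with control sheep in blue and testosterone sheep in orange and the group mean as a line (n = 4). In control sheep DNMT1, EHMT2 and SETD5 in epicardial fat lie above all other depots and HDAC7 in subcutaneous fat lies below them; 2 testosterone libraries, 1 visceral and 1 subcutaneous, stand far above the rest for DNMT3A.

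DNMT1 stood at 90.2, 90.1, 106 and 109 CPM in epicardial fat of control sheep 98, 131, 132 and 201. In the same order it was 61.4, 65.1, 53.5 and 64.6 CPM in subcutaneous fat. Its 4 epicardial libraries lay above the other 12, which reached 78.5 CPM, whereas the subcutaneous range overlapped that of visceral fat (59.4 to 73.5 CPM). The epicardial log2 difference was 0.54 ± 0.10 (SE, edgeR adjusted p = 0.000631) and the subcutaneous one -0.38 ± 0.10 (edgeR adjusted p = 0.0141), the latter held under 7 of 9 alternatives.

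DNMT3A, the de novo methyltransferase of differentiated tissue, was 74.5, 48.4, 49.3 and 66.4 CPM in epicardial fat of the 4 control sheep. In perirenal fat it was 25.4, 27.8, 25.5 and 28.9 CPM, and in visceral fat 46.9, 24.4, 26.6 and 26.7 CPM. Perirenal and epicardial fat did not overlap, and 3 of the 4 visceral libraries lay within the perirenal range or just below it. Subcutaneous fat lay between, at 41.8 to 51.6 CPM, overlapping the lower epicardial values. DNMT3A was higher in epicardial fat by 0.81 ± 0.14 on the log2 scale (edgeR adjusted p = 0.000402) and lower in perirenal fat by -0.69 ± 0.15 (edgeR adjusted p = 0.00773). The visceral difference of -0.45 ± 0.15 missed the threshold (edgeR adjusted p = 0.084). Accordingly DNMT1 was 2.46 to 3.09 times DNMT3A in perirenal fat and 1.21 to 2.15 times in epicardial fat of control sheep. DNMT3B did not pass the filter in these fits and ran from 0.172 to 1.37 CPM over the 16 control libraries.

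TET1 was higher in epicardial fat. It measured 289, 348, 300 and 261 CPM there in the control sheep, against 154 to 268 CPM in the other 12 libraries, an overlap made by a single subcutaneous library at 268 CPM. The difference was 0.67 ± 0.11 (SE, edgeR adjusted p = 0.000377). TET2 differed there by 0.30 ± 0.14 (edgeR adjusted p = 0.137). TET2 was lower in perirenal fat, where it was 37.7, 58.3, 57.6 and 34.9 CPM, below every epicardial library (67.3 to 74.4 CPM) but overlapping visceral and subcutaneous fat. Its perirenal difference was -0.50 ± 0.15 (edgeR adjusted p = 0.036), and it held under 5 of 9 alternatives. TET3, at 1.00 to 6.35 CPM in control sheep, was not called in any depot.

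EHMT2 had the largest difference of any member in epicardial fat. Its values there were 21.6, 14.1, 26.7 and 16.1 CPM, and the other 12 control libraries ran from 6.47 to 11.5 CPM without overlap. The log2 difference was 1.10 ± 0.18 (edgeR adjusted p = 0.000195). EHMT2 was also lower in visceral fat, at 6.83, 9.36, 7.70 and 6.47 CPM (-0.71 ± 0.19, edgeR adjusted p = 0.0392), a call kept under 3 of 9 alternatives. Its partner EHMT1 ran from 116 to 207 CPM and was not called in any depot.

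EZH1 was higher in perirenal fat, at 252, 164, 237 and 352 CPM. Sheep 131 had the lowest value, within the range of all other depots (131 to 231 CPM), so the groups overlapped. The difference was 0.48 ± 0.14 (edgeR adjusted p = 0.0303) and held under 6 of 9 alternatives. EZH2 ran from 9.41 to 19.6 CPM in control sheep, and none of its differences passed the test.

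Among the KMT and SETD genes, SETD5, a SET-domain protein found with the NCoR and HDAC3 corepressor, was called in 3 of the 4 depots. It was 325, 263, 266 and 236 CPM in epicardial fat, above the highest of the other 12 libraries at 231 CPM. Its log2 difference was 0.74 ± 0.10 in epicardial fat (edgeR adjusted p = 5.03e-05), -0.47 ± 0.11 in perirenal fat (adjusted p = 0.0105) and -0.41 ± 0.11 in visceral fat (adjusted p = 0.0371). The perirenal call held under 7 of 9 alternatives and the visceral call under 3. SETDB2, of the family that methylates H3 at silenced chromatin, was higher in epicardial fat (27.8 to 38.9 CPM) and lower in perirenal fat (15.2 to 21.4 CPM), by 0.47 ± 0.12 and -0.48 ± 0.12 on the log2 scale. These SETDB2 ranges did not overlap. RCBTB1, which overlaps SETDB2 in the RefSeq annotation, held 22.2 to 43.7 CPM in control sheep and had differences of the opposite sign, -0.16 in epicardial and 0.19 in perirenal fat (edgeR adjusted p = 0.369 and 0.299). KMT2A and KMT2E were higher in epicardial fat by 0.30 ± 0.10 and 0.32 ± 0.11, and KMT2A and KMT2C were lower in perirenal fat by -0.34 ± 0.11 and -0.38 ± 0.12. Each of these KMT2 calls held under at most 4 of 9 alternatives. The arginine methyltransferases PRMT2 and PRMT9 were higher in subcutaneous fat by 0.50 ± 0.16 and 0.40 ± 0.13, and PRMT3, which modifies a ribosomal protein, was lower in perirenal fat by -0.37 ± 0.12. Calls of PRMT2, PRMT9 and PRMT3 held under 7, 5 and 3 of 9 alternatives.

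None of the demethylase calls held under all 9 alternatives. KDM6B, which removes the Polycomb mark, measured 12.7, 13.1, 17.6 and 16.2 CPM in visceral fat and 20.9, 25.4, 23.4 and 32.0 CPM in subcutaneous fat. These depots did not overlap, and the log2 differences were -0.63 ± 0.14 (edgeR adjusted p = 0.0157) and 0.39 ± 0.13 (edgeR adjusted p = 0.0465). The visceral KDM6B call held under 6 of 9 alternatives and the subcutaneous one under 2. Of the flavin-dependent demethylases, KDM1B was higher in epicardial fat by 0.46 ± 0.12 and lower in subcutaneous fat by -0.40 ± 0.13, whereas KDM1A (LSD1) was lower in epicardial fat by -0.39 ± 0.11. The 4 epicardial values of KDM1A, 40.5 to 47.2 CPM, lay just below those of the other 12 libraries, which began at 47.7 CPM. KDM4B was higher in subcutaneous fat by 0.37 ± 0.13 and kept that call under 3 of 9 alternatives.

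KAT6A, KAT14 and KAT2B were the acetyltransferases that differed. KAT6A (MOZ) was 87.5, 97.9, 101 and 84.1 CPM in visceral fat, below all 12 other libraries, which began at 105 CPM. Its differences were -0.43 ± 0.11 in visceral fat and 0.31 ± 0.10 in epicardial fat (edgeR adjusted p = 0.0249 and 0.0289). These calls held under 5 and 3 of 9 alternatives. KAT2B was 275, 373, 288 and 329 CPM in epicardial fat against 427 to 683 CPM in visceral and 500 to 603 CPM in subcutaneous fat. The epicardial values lay below both of those depots but within the perirenal range of 173 to 594 CPM (-0.59 ± 0.18, edgeR adjusted p = 0.0211). KAT14, a subunit of the ATAC complex, was lower in epicardial fat by -0.52 ± 0.16 and higher in perirenal fat by 0.46 ± 0.15. The KAT14 calls held under 5 and 3 of 9 alternatives, and that of KAT2B under 4.

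HDAC7 showed the widest depot difference of the deacetylases. In subcutaneous fat of control sheep 98, 131, 132 and 201 it was 135, 142, 114 and 145 CPM. In perirenal fat it was 383, 301, 275 and 493 CPM, and in visceral and epicardial fat it ran from 177 to 310 CPM. All 4 subcutaneous libraries lay below the other 12, and the perirenal and visceral ranges overlapped. The log2 difference was -1.08 ± 0.16 in subcutaneous fat (edgeR adjusted p = 0.000239) and 0.82 ± 0.14 in perirenal fat (edgeR adjusted p = 0.00194). The heme transporter gene SLC48A1 overlaps HDAC7 in the RefSeq annotation, and whether counting used strand is not given in the sources used here. SLC48A1 held 8.82 to 30.7 CPM in control sheep and differed by -0.13 in subcutaneous fat (edgeR adjusted p = 0.649) and 0.40 in perirenal fat (edgeR adjusted p = 0.124). HDAC6, a mainly cytoplasmic deacetylase of tubulin, was higher in epicardial fat by 0.48 ± 0.14.

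Of the sirtuins, SIRT5, a mitochondrial enzyme that removes succinyl and malonyl groups, moved with HDAC7. It was 15.8, 23.3, 16.6 and 15.4 CPM in subcutaneous fat and 31.2, 36.1, 46.1 and 38.4 CPM in perirenal fat. The 2 depots did not overlap, and sheep 131 alone brought the subcutaneous range into that of epicardial fat, whose highest library had 29.8 CPM. The differences were -0.82 ± 0.15 (SE, edgeR adjusted p = 0.000928) and 0.64 ± 0.13 (edgeR adjusted p = 0.00532). SIRT7, the nucleolar sirtuin, went the other way, at 27.8, 25.9, 25.2 and 25.5 CPM in subcutaneous fat and 10.8 to 20.7 CPM in perirenal fat. The subcutaneous values lay above the other 12 libraries, whose highest was 25.04 CPM, and the differences were 0.51 ± 0.16 and -0.54 ± 0.16.

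Within single animals, in 36 of the 39 calls all 4 control sheep had the named depot on the stated side of the mean of their own other 3 depots, and in the remaining calls 3 did. The calls were picked from these same libraries, so this agreement is largely fixed by that choice. The marker lists moved with the depots. Adipocyte genes summed to 9942 to 24624 CPM in epicardial fat and 28516 to 54860 CPM in the other depots of control sheep. Nuclear transcripts had medians of 7042 CPM in epicardial, 8035 CPM in subcutaneous, 5435 CPM in visceral and 4467 CPM in perirenal fat. T and NK cell genes (8 of their markers were lower in subcutaneous fat) summed to 11.3 to 25.7 CPM there and 40.8 to 111 CPM elsewhere. Endothelial genes (6 of their 8 markers were lower in epicardial fat, among them PECAM1, CDH5 and KDR) summed to 691 to 776 CPM there and 897 to 1115 CPM elsewhere. Macrophage genes (4 markers, CSF1R, TYROBP, AIF1 and C1QC, were lower in subcutaneous fat) summed to 384 to 585 CPM in subcutaneous, 351 to 708 CPM in epicardial, 647 to 914 CPM in perirenal and 745 to 927 CPM in visceral fat. The control epicardial library with the highest heart muscle sum, that of sheep 98 (12473 CPM), had the highest DNMT3A and SETD5, and the one with the lowest, that of sheep 132 (6.54 CPM), the highest EHMT2. The part of these cells in the depot differences was not tested. Without the epicardial libraries of control sheep 98 and testosterone sheep 48, the richest in heart muscle RNA, 8 members were called in control epicardial fat. They were DNMT1, DNMT3A, EHMT2, HDAC6, KMT2E, SETD5, SETDB2 and TET1, all higher. Of these libraries only that of sheep 98 enters the control fit. The epicardial libraries of sheep 131 (3123 CPM of heart muscle genes) and 201 (336 CPM) stayed in. How many of all genes that fit called is not given here.

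Partners of these enzymes were counted in the same contrasts, from lists of complex subunits, readers and cofactor enzymes. No test was run over a list, so the counts are not read as a result about the partners as a set. In epicardial fat 4 of 17 DNA methylation partners and readers were higher and 1 lower, where 15.3% and 12.4% of all genes were. The higher ones included the glycosylases MBD4 (log2 difference 0.66) and TDG (0.58), which act after TET oxidation or deamination, whereas the methyl-DNA reader MBD2 was lower (-0.49). Of 27 other writers and readers 6 were higher, among them the acetyltransferases EP300 (0.27) and CREBBP (0.30), and none was lower. Of 27 Polycomb partners 2 were higher (MTF2 0.56, CBX6 0.67) and 4 were lower (PCGF5 -0.66, PCGF2 -0.55, BAP1 -0.46, BMI1 -0.36).

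In subcutaneous fat 4 of 12 cofactor enzymes were higher and 2 lower, where 11.4% and 11.6% of all genes were. NNMT, which consumes methyl donor and nicotinamide, was higher by 2.50 ± 0.45 (edgeR adjusted p = 0.000882), ACSS2, which makes acetyl-CoA from acetate, by 1.12 and NAMPT, the NAD salvage enzyme, by 0.81. NMNAT3 was lower by -1.39. The repressive methyltransferase SUV39H1 was higher in subcutaneous fat by 1.19 and lower in visceral fat by -0.82. Of 27 Polycomb partners 5 were higher in subcutaneous fat and none was lower, the former including RBBP4 (0.88) and PHC2 (0.79). The KMT2 complex subunit DPY30 was lower in subcutaneous fat (-0.69) and higher in perirenal fat (0.53), where WDR5 of the same complex was also higher (0.53). In perirenal fat none of 27 Polycomb partners was higher and 3 were lower (ASXL1 -0.64, RBBP4 -0.61, PHF19 -0.51), where 7.73% and 6.04% of all genes were, and in visceral fat none of the 6 lists had a higher member, where 3.49% of all genes were higher.

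The testosterone sheep are a separate set of animals in which to read the same depot contrasts. In them 75 members were tested and none was called in any depot by edgeR. The members with an unadjusted p under 0.05 numbered 2, 5, 17 and 5 in visceral, subcutaneous, perirenal and epicardial fat. The share of all genes at that level is not given here, so these counts are not read as a result about the members. Calls were scarce across all genes too: 0.0671% were higher and 0.0224% lower in visceral fat, 1.25% and 1.3% in subcutaneous, 0.455% and 0.104% in perirenal, and 2.97% and 1.49% in epicardial fat. DESeq2 called HDAC7 and KDM1B in subcutaneous fat and DNMT3A, KMT2B and SETD5 in perirenal fat, and no member in the other depots. The share of all genes called by DESeq2 is not given here.

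By the sign of the fitted difference, the directions were mostly those of the control sheep. Of the 39 differences called in control sheep, 35 had the same sign in testosterone sheep, against 94.4% of all gene calls. The exceptions were 3 of the 4 visceral calls and 1 of the 8 members lower in perirenal fat. Without the subcutaneous library of sheep 48 and the visceral library of sheep 255, the 4 visceral differences were negative, as in control sheep. They were -0.35 ± 0.31 (EHMT2), -0.08 ± 0.16 (KAT6A), -0.66 ± 0.25 (KDM6B) and -0.01 ± 0.22 (SETD5), and none was called. With the epicardial libraries of sheep 48 and 233 left out as well, SETD5 was at 0.15 ± 0.19. Single animals were less regular: all 4 testosterone sheep had the named depot on the stated side of their own other depots in 16 of the 39 calls. At least 3 of them did in 30 of the 39. HDAC7 was 260, 153, 159 and 192 CPM in subcutaneous fat of testosterone sheep 48, 185, 233 and 255 and 465, 257, 251 and 311 CPM in their perirenal fat. Each of the 4 animals had less HDAC7 in subcutaneous fat, and more in perirenal fat, than in the mean of its other depots. SIRT5 did the same in all 4, at 18.9 to 27.5 CPM in subcutaneous and 31.1 to 49.1 CPM in perirenal fat, which did not overlap. DNMT3A in perirenal fat was 39.7, 29.3, 22.9 and 35.2 CPM, below the other 12 testosterone libraries, which began at 39.9 CPM. In epicardial fat EHMT2, DNMT1, TET1 and SETD5 were higher in 3 of 4 testosterone sheep and DNMT3A in 2 of 4.

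**Figure D3:**
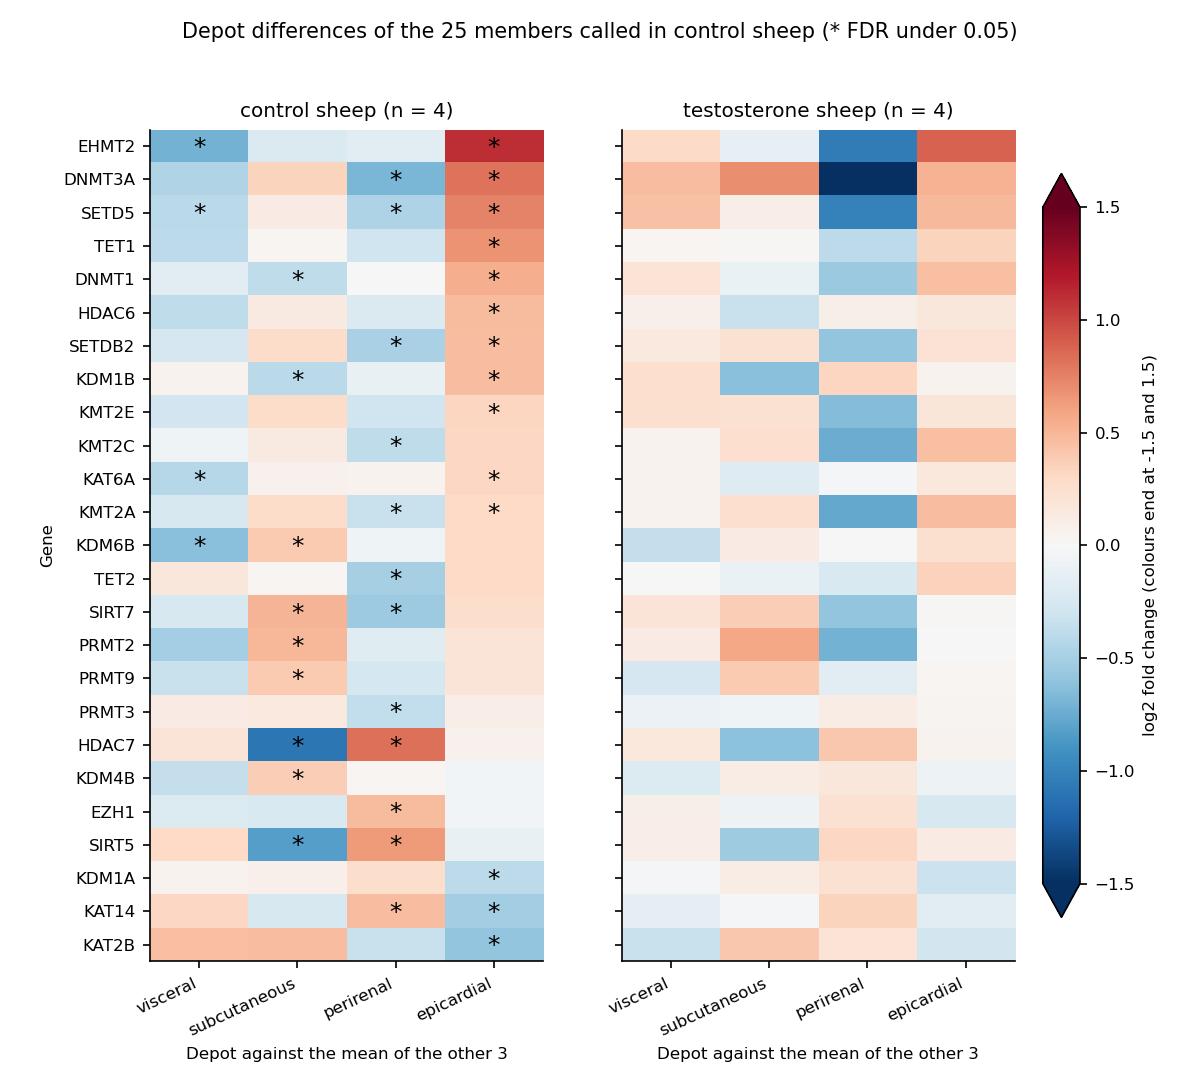
Log2 difference of each depot from the mean of the other 3 for the 25 members called in control sheep (left) and the same members in testosterone sheep (right), by edgeR; red is higher, blue lower, asterisks mark a false discovery rate under 0.05. Epicardial fat of control sheep carries 11 of the higher calls, and no asterisk appears in testosterone sheep.

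The libraries rich in nuclear transcripts bear on these counts. Without the subcutaneous library of sheep 48 and the visceral library of sheep 255, edgeR called 13 members in epicardial fat of testosterone sheep, all higher. Over all genes that fit called 2199, and the fit with all libraries had tested 13411. The count of 13 is therefore not read as a result about the members. Among the 13 members were DNMT1 (0.78 ± 0.16), DNMT3A (1.02 ± 0.20), EHMT2 (1.34 ± 0.26), SETD5 (0.77 ± 0.19) and TET2 (0.53 ± 0.16). The KMT2 enzymes KMT2A, KMT2B, KMT2C and KMT2D were also among them, at 0.72, 1.69, 0.73 and 0.74. All 14 epicardial calls of the control sheep then had the same sign and 5 were called in both. DNMT3A was the sole perirenal call, at -1.06 ± 0.22 (edgeR adjusted p = 0.0314). With the epicardial libraries of sheep 48 and 233, the next highest in nuclear transcripts, left out as well, no epicardial member was called, DNMT3A (-0.95, edgeR adjusted p = 0.0267) and KMT2B (-0.99) were lower in perirenal fat, and HDAC7 (-0.69, edgeR adjusted p = 0.0359) was lower and KMT2B (0.94) and PRMT2 (0.63) were higher in subcutaneous fat. Leaving out whole animals gave at most 2 epicardial calls (KMT2B and KMT2D, without sheep 255) and 1 subcutaneous call (PRMT2, without sheep 255). For the other depots and reduced fits of this paragraph, the share of all genes called is not given here.

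**Figure D4:**
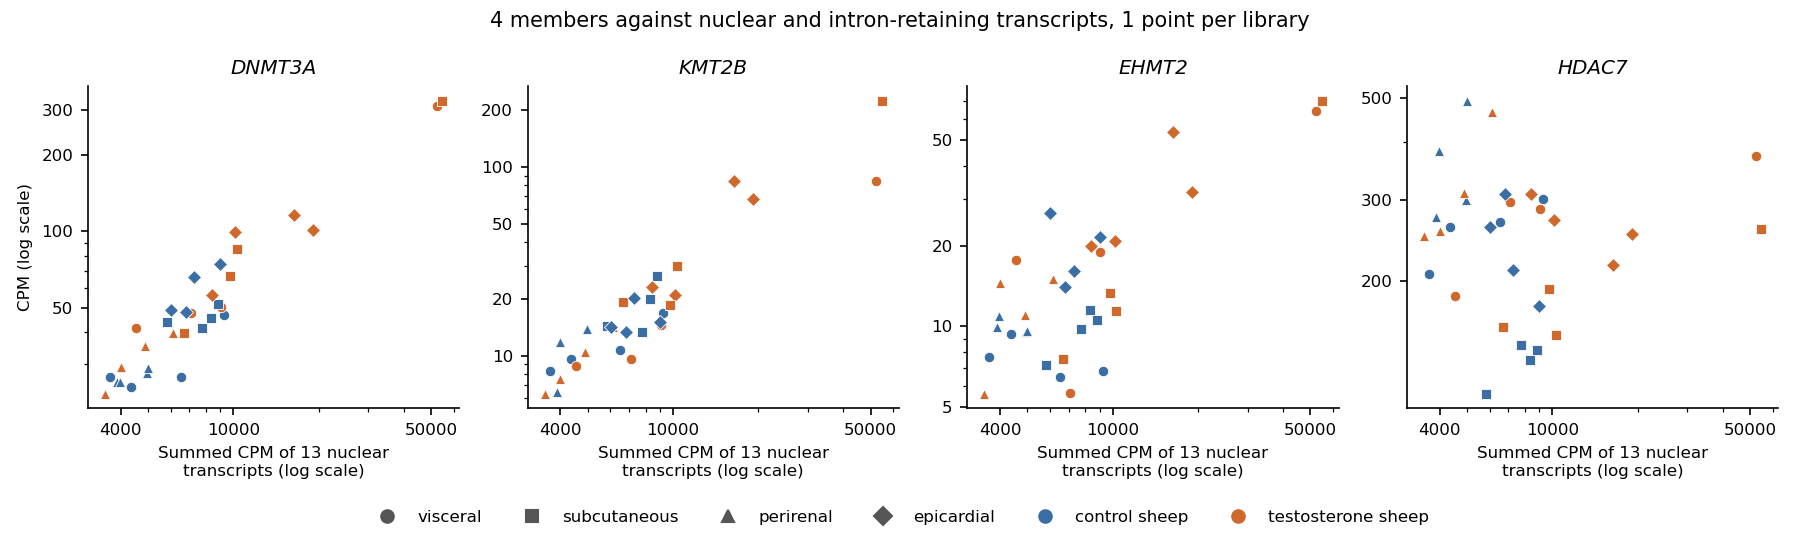
CPM of DNMT3A, KMT2B, EHMT2 and HDAC7 in each of the 32 libraries against the summed CPM of 13 nuclear and intron-retaining transcripts (both axes log), with depots as symbols and treatment as colour. The 2 libraries at 52255 and 54818 CPM hold the highest DNMT3A and EHMT2 values, whereas HDAC7 in them lies within the range of the other libraries.

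Whether prenatal testosterone altered these enzymes was asked in each depot, 4 sheep against 4. DNMT3A was the member with the highest mean difference in visceral fat and its difference was positive in all 4, but its values overlapped those of controls in each. No member passed the test in any depot, and none did over the depots together. Epicardial fat held the most members whose groups did not overlap, chiefly KMT2 and KDM5 genes.

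By edgeR's quasi-likelihood test 0 of 73 members were called in visceral, subcutaneous and perirenal fat each and 0 of 72 in epicardial fat, where 0% of all genes were called as well. An unadjusted p under 0.05 was reached by 9, 5, 0 and 8 members in visceral, subcutaneous, perirenal and epicardial fat. The share of all genes at that level is not given here for any comparison, so such counts are not read as a result about the members. DESeq2 called 1 member, KDM5B in epicardial fat (adjusted p = 0.0491, and at least 0.276 under every edgeR setting tried), and none elsewhere. With the 4 depots of a sheep added up to 1 value, 0 of 77 members were called by edgeR and by DESeq2 (8 at an unadjusted p under 0.05), against 0.00654% of 15301 genes. The joint test of whether the testosterone effect differed between depots called 0 of 76 members, against 0.00703% of 14225 genes, and by it only KDM5B had an unadjusted p under 0.05.

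DNMT3A in visceral fat was 46.9, 24.4, 26.6 and 26.7 CPM in control sheep 98, 131, 132 and 201 and 50.5, 41.5, 47.8 and 313 CPM in testosterone sheep 48, 185, 233 and 255. In subcutaneous fat it was 45.5, 51.6, 43.9 and 41.8 CPM against 328, 85.2, 39.9 and 66.8 CPM. The values of 313 and 328 CPM came from the libraries rich in nuclear transcripts, and 1 control and 1 testosterone library, respectively, made the groups overlap. The log2 difference was 1.85 ± 0.65 for visceral (edgeR adjusted p = 0.521), 1.48 ± 0.58 for subcutaneous (edgeR adjusted p = 0.927), 0.23 ± 0.18 for perirenal (edgeR adjusted p = 0.983) and 0.65 ± 0.24 for epicardial fat (edgeR adjusted p = 0.819). Without the nuclear-rich library the visceral value was 0.56 ± 0.25 and the subcutaneous one 0.49 ± 0.24. Over the depots DNMT3A differed by 0.71 ± 0.19 (unadjusted p = 0.0031, edgeR adjusted p = 0.6), and that sum was not rerun without single libraries.

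None of the other DNA-modifying enzymes tested was called in any depot. DNMT1 in visceral fat was 59.4 to 73.5 CPM in control sheep and 75.6, 65.1, 69.2 and 256 CPM in testosterone sheep, a log2 difference of 0.75 ± 0.43 that was -0.00 ± 0.16 without sheep 255. The TET1 difference was 0.57 for visceral, 0.24 for subcutaneous, 0.12 for perirenal and -0.03 for epicardial fat, and the visceral value was 0.27 ± 0.19 without sheep 255. TET2 in epicardial fat was 67.3, 74.4, 71.0 and 69.3 CPM in control and 81.6, 86.2, 104 and 78.4 CPM in testosterone sheep. These TET2 groups did not overlap, and the difference was 0.32 ± 0.15 (edgeR adjusted p = 0.863). In perirenal fat TET2 averaged 47.1 CPM in control and 64.1 CPM in testosterone sheep, with overlapping groups (34.9 to 58.3 against 55.1 to 84.4 CPM). TET3 averaged 4.25 against 4.56 CPM in visceral, 2.61 against 2.88 CPM in perirenal and 4.09 against 5.81 CPM in epicardial fat. DNMT3B, below the filter, rested on 1 to 2 counts per library in epicardial fat of controls and 2 to 7 in testosterone sheep, or 0.172 to 0.653 against 0.940 to 2.89 CPM.

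EHMT2 differed by 1.76 ± 0.59 in visceral fat (edgeR adjusted p = 0.521), where testosterone sheep 48, 185, 233 and 255 had 19.0, 17.7, 5.63 and 63.9 CPM and controls 6.47 to 9.36 CPM. Sheep 233 lay below every control, and without sheep 255 the difference was 0.86 ± 0.37. In subcutaneous fat the EHMT2 difference of 1.17 ± 0.64 became 0.15 ± 0.29 without sheep 48. EHMT1, EZH1 and EZH2 differed by between -0.19 and 0.52 on the log2 scale over the 4 depots, each with an edgeR adjusted p above the threshold. The highest of these, EZH1 in visceral fat, was -0.18 ± 0.22 without sheep 255.

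In epicardial fat 7 of the 72 members tested were higher in all 4 testosterone sheep than in any control, and none was lower in all, where 1.99% of genes were apart and higher and 1.7% apart and lower. They were KDM5A, KDM5B, KMT2A, KMT2B, KMT2C, KMT2D and TET2. KDM5B, which removes methyl groups from active promoters, was 84.6, 62.3, 73.2 and 72.2 CPM in control and 121, 117, 107 and 94.6 CPM in testosterone sheep. Its difference was 0.60 ± 0.16 (edgeR adjusted p = 0.697), and 0.55 ± 0.19 without the epicardial libraries of sheep 48 and 233. KMT2B was 13.4 to 20.2 CPM in control sheep against 84.0, 21.1, 67.4 and 23.1 CPM, and sheep 48 and 233 stood well above the other testosterone sheep. Its difference of 1.62 ± 0.46 was 0.50 ± 0.24 without them. KMT2A was 312, 258, 229 and 297 CPM against 451, 357, 444 and 333 CPM (0.54 ± 0.17, and 0.34 ± 0.19 without them), and KMT2C 363 to 415 CPM against 436 to 568 CPM (0.44 ± 0.15, and 0.29 ± 0.17 without them). The nuclear transcripts summed to 6025 to 9002 CPM in the control and 8397 to 19123 CPM in the testosterone epicardial libraries, and whether they account for these differences was not tested.

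In visceral fat 2 of 73 members were apart and higher (KDM5B, SETD5) and 2 apart and lower (PRMT3, SETD4), against 2.79% and 2.8% of genes. PRMT3 was 78.3, 80.3, 86.5 and 84.6 CPM in control and 53.3, 60.5, 76.1 and 46.9 CPM in testosterone sheep, a difference of -0.48 ± 0.19 (edgeR adjusted p = 0.521) that was -0.40 ± 0.17 without sheep 255. SETD5 was 134 to 184 CPM against 228, 195, 192 and 795 CPM (1.23 ± 0.46, and 0.43 ± 0.17 without sheep 255). KDM5B was 56.5 to 71.9 CPM against 92.8, 86.3, 75.2 and 256 CPM (1.03 ± 0.38, and 0.42 ± 0.17 without sheep 255).

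In subcutaneous fat HDAC7 and KAT7 were apart and higher and SETD4 apart and lower, against 1.55% and 1.79% of genes. HDAC7 was 114 to 145 CPM in control and 260, 153, 159 and 192 CPM in testosterone sheep, with sheep 48 highest (0.52 ± 0.22, edgeR adjusted p = 0.927, and 0.33 ± 0.17 without sheep 48). In perirenal fat the spread of differences was narrow, from -0.36 to 0.44 over 73 members. None of the libraries rich in nuclear transcripts was perirenal, and a link to that spread was not tested. No member was apart and higher (1.37% of genes), and HDAC5 alone was apart and lower, at 17.4 to 19.4 CPM against 12.7 to 16.7 CPM (1.63% of genes). On the sums over depots, KAT7 (0.32 ± 0.11) and HDAC1 (0.26 ± 0.11) were apart and higher and PRMT3 (-0.30 ± 0.12) and SIRT4 apart and lower, of 77 members, against 1.76% and 1.95% of genes.

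**Figure D5:**
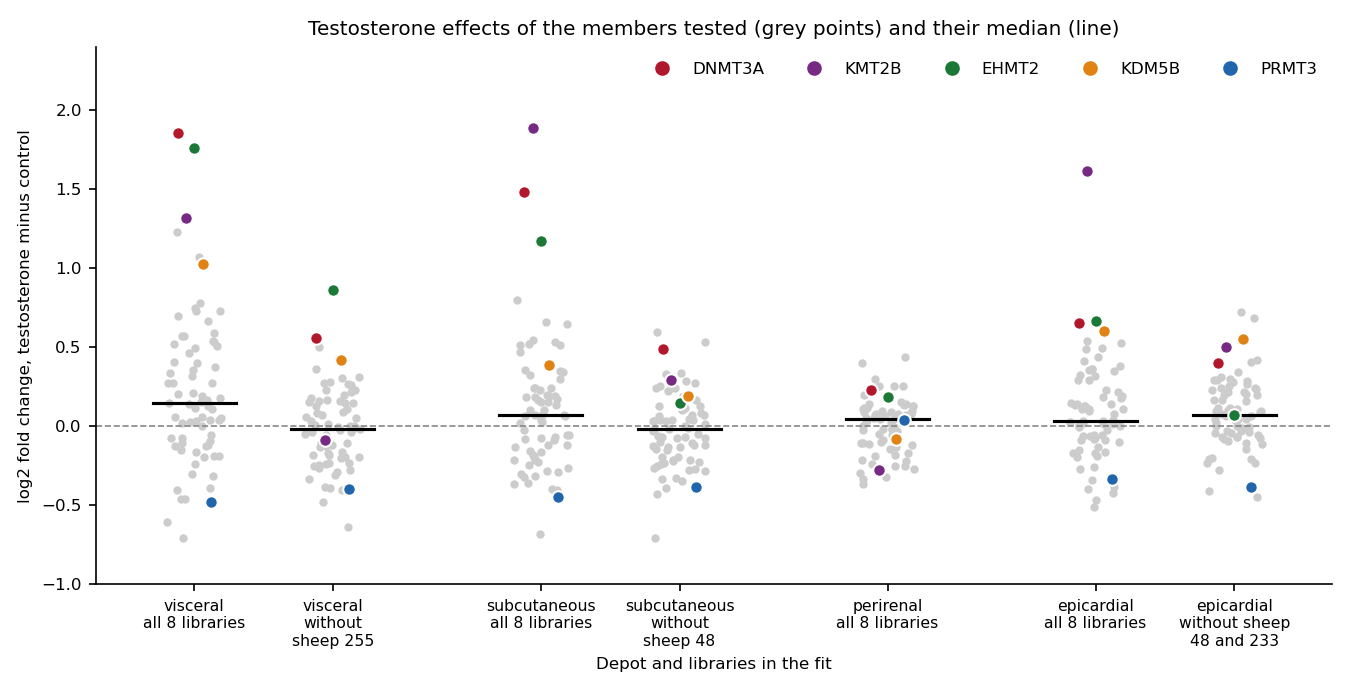
Log2 fold change of testosterone against control for each member tested (grey points) and their median (black line), by depot, with all 8 libraries and without the libraries named on the axis; 5 members are coloured. The members' median is 0.15 in visceral fat with all libraries and -0.02 without sheep 255, and DNMT3A, EHMT2 and KMT2B lie closer to 0 in the reduced visceral and subcutaneous fits.

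The members' median testosterone difference was 0.15 for visceral, 0.07 for subcutaneous, 0.04 for perirenal and 0.03 for epicardial fat, with 49 of 73, 42 of 73, 41 of 73 and 45 of 72 above 0, and the medians of all genes lay between 0.00 and 0.02. Without the nuclear-rich library the members' median was -0.02 in visceral and -0.02 in subcutaneous fat, and without epicardial libraries 48 and 233 it was 0.07 in epicardial fat; without the 2 epicardial libraries rich in heart muscle RNA it was 0.13 there, against 0.01 for all genes. None of the 6 lists of partner, reader and cofactor genes had a member called by edgeR in any testosterone comparison, where between 0 and 3 members per list and depot had an unadjusted p under 0.05.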

How the data were processed

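RNA of 32 fat samples (8 sheep, 4 depots) had been read by 3′-end sequencing. The deposited values are raw counts per gene, whole numbers that the authors did not normalize, from reads handled with DESeq2 1.24.0, R 3.6.3, featureCounts 1.6.1, STAR, Trimmomatic 0.36, MultiQC 0.9 and FastQC 0.11.5, per the submitters' processing notes, which give no order. Which genome build, annotation and strand setting were used is not given in the sources used here. Reads of overlapping genes may therefore be shared: all 80 members matched a symbol in RefSeq's ARS-UI_Ramb_v3.0 table, where 30 overlap another gene and 11 a coding one. Of the members with core calls, DNMT3A, HDAC7, SETD5, SIRT5 and TET1 overlap another gene, a coding one for HDAC7 alone.

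Genes with enough counts were kept (edgeR's filterByExpr, minimum count 10), scaled by TMM and tested with edgeR 4.0.16 (R 4.3.3) by robust quasi-likelihood fits, with p-values adjusted by Benjamini-Hochberg over all genes tested and a threshold of 0.05. Standard errors were obtained as the absolute log2 fold change over the square root of F. Testosterone effects used the 8 libraries of a depot, depot contrasts the 16 libraries of a treatment with sheep as a block, and the interaction all 32, 14 comparisons in all. The block rests on the labels, which tie the 4 depots to each animal; of 48 pairs of libraries from the same sheep 41 deviated together (correlation over 0.1, mean 0.264, against -0.0877 between sheep). No 2 replicates were identical. Total counts of 784135 to 8267824 set the precision.

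Every DNMT, TET, EZH and EHMT gene is described. Of the other families those passing the test are named, up to 12 per direction, or, where none passed, up to 6 with the smallest p among members whose groups did not overlap, plus the highest and lowest of each family (KMT2D and the genes that complete short counts under alternatives were named after their values were seen). Members and lists were chosen with earlier results of these data known. Alternatives were median-of-ratios scaling, DESeq2 1.42.0, no filter, no block, single sheep left out and libraries rich in nuclear or heart muscle RNA left out.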

Additional observations from a re-analysis of the deposited data

Results flagged for a closer look

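Of the 70 groups of 4 libraries formed by the members described by sample, 8 held a library set apart from the other 3 by more than Dixon's 95% limit for the gap over the group's range, a mark that chance alone gives to about 1 group in 20. In visceral fat of testosterone sheep 255, KDM5B was 255.6 CPM with the nearest of the others at 92.8 CPM, SETD5 was 795 CPM with the nearest at 228 CPM, and DNMT3A was 313 CPM with the nearest at 50.5 CPM. In subcutaneous fat of testosterone sheep 48, DNMT3A was 328 CPM with the nearest at 85.2 CPM. These are the 2 libraries with the highest nuclear transcripts. In epicardial fat of testosterone sheep 233, KDM5A was 191 CPM with the nearest at 157 CPM.

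Among control sheep, DNMT3A was 46.9 CPM in visceral fat of sheep 98, with the nearest at 26.7 CPM. SETD4 was 16.1 CPM in that library, with the nearest at 14.2 CPM. SIRT5 was 23.3 CPM in subcutaneous fat of sheep 131, with the nearest at 16.6 CPM.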

How the results depend on the processing

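No called log2 fold change reversed. Of the uncalled testosterone differences, DNMT1 (0.75 to -0.00), EZH1 (0.52 to -0.18) and KMT2B (1.32 to -0.08) were among those in visceral fat that turned sign without sheep 255's library. Of 351 depot values recomputed for the called members, 225 kept the call and 126 lost it, and of 283 testosterone values for DNMT3A and members whose groups did not overlap (up to 6 per comparison) 282 stayed on their side of the threshold (KDM5B in epicardial fat passed with DESeq2). In control sheep, the 4 visceral calls became 1 with no filter and 2 with no replicate block, the 12 perirenal calls 5 with no replicate block, and the 14 epicardial calls 9 with no replicate block and 8 without the libraries rich in heart muscle RNA; the 9 subcutaneous calls became 6 with no block. In testosterone sheep, subcutaneous calls rose from 0 to 2 with DESeq2 and 3 without 4 nuclear-rich libraries, perirenal calls to 3 with DESeq2 and to 1 and 2 without 2 and 4 such libraries, and epicardial calls to 1 with no filter (PRMT8) and 13 without 2 such libraries. DESeq2 gave 1 testosterone call in epicardial fat. Leaving out single sheep gave 0 to 4 visceral, 3 to 8 subcutaneous, 3 to 8 perirenal and 7 to 10 epicardial calls in control sheep, and 0 to 1 subcutaneous and 0 to 2 epicardial calls in testosterone sheep; the other comparisons stayed at 0. The exclusion of 4 libraries, that of epicardial libraries 48 and 233 and the interaction without single sheep were chosen after seeing the data. The cause of each change was not tested, except that fits without animals or libraries hold fewer samples. Shares of all genes called in these alternative fits are not given here, so the changed counts are not read as a result about the members. Depth limits the 5 members under 1 CPM, which the filter on low counts left out of the depot fits. The sums over depots were not run without the 2 nuclear-rich libraries.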
